A study of Mus musculus with 282 samples.

Results

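Mt1, Mt2 and Mt3 encode the 3 metallothioneins measured in the mouse hypothalamus by this series, and this account follows their RNA levels across inbred strains. The members were the gene and transcript entries whose gene name in the study's merged transcript assembly was Mt1, Mt2 or Mt3, which gave 3 of 14079 gene loci and 9 of 51024 transcripts. The series holds RNA-seq libraries of the whole hypothalamus of male mice fed a high fat diet, each library from 1 mouse. All groups share the sex, the tissue and the diet, and they differ in strain, so the data hold no other diet, sex or treatment to compare with. Of 282 deposited libraries, a near-identical pair was counted as 1 mouse and 1 mouse carried 2 strain names, which left 280 mice of 99 strains, of which 84 had 3 mice, 13 had 2 and 2 had 1.

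The strains fell into 25 classical inbred strains (71 mice), 43 strains of the BXD set (126 mice), 18 of the AXB/BXA set (47 mice), 6 of the BXH set (16 mice) and 7 of the CXB set (20 mice). A recombinant inbred set is made by crossing a pair of inbred founders and inbreeding the offspring, so that each strain carries a fixed mosaic of the founder genomes. All of these sets have C57BL/6J as a founder, and the other founders are DBA/2J for BXD, A/J for AXB/BXA, C3H/HeJ for BXH and BALB/cJ for CXB. Each strain is a fixed genotype, but mice of a strain share everything that strain name stands for, including how they were bred and housed. The p-values of tests between strains therefore measure only the spread between mice of a strain. Permutation p-values of correlations over strain means rest on the spread between strains instead. They treat strains as if unrelated, although strains of a recombinant inbred set share founders, and kinship was not modelled. The ages of the mice are not given in the sources used here.

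Metallothioneins are small cysteine-rich proteins that bind zinc and copper. Mt1 and Mt2 are expressed in many tissues and are induced by metals through the zinc-sensing transcription factor MTF-1, by glucocorticoids and by oxidants, and in the brain they are found mainly in astrocytes and the lining cells of ventricles and vessels. Mt3, also known as growth inhibitory factor, is largely a gene of the nervous system, is expressed by neurons as well as astrocytes, and responds little to metals.

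The 3 genes lie side by side on the plus strand of chromosome 8 (mm10). Mt3 spanned chr8:94152280-94154210, Mt2 chr8:94172290-94173568 and Mt1 chr8:94178962-94180472 in the assembly, with 18079 bases between Mt3 and Mt2 and 5393 between Mt2 and Mt1. Each has 3 coding exons. Their coding sequences are shown, joined over the exons as annotated by GENCODE on GRCm38 and without the stop codon, because the cysteine codons, in capitals, are what makes the family.
Mt1: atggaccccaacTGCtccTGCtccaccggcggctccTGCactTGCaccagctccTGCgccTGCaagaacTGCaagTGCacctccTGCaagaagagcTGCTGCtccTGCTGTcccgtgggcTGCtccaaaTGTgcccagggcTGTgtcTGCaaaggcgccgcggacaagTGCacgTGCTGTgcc
Mt2: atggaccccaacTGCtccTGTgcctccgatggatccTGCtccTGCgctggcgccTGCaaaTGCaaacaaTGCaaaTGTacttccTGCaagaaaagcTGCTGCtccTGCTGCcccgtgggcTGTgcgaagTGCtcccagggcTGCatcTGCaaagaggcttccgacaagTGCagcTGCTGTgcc
Mt3: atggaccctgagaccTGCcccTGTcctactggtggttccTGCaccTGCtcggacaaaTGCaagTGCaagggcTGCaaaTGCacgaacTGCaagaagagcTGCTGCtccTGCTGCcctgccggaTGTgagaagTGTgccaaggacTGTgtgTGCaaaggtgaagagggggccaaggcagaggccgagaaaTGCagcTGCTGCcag
Mt1 and Mt2 each held 61 codons and Mt3 held 68, and in each 20 codons were for cysteine, which is 32.8% of the codons of Mt1 and Mt2 and 29.4% of those of Mt3. The aligned coding sequences were 79.2% identical between Mt1 and Mt2, 68.4% between Mt1 and Mt3 and 68.8% between Mt2 and Mt3. No window of 50 bases, the read length of the libraries, matched the annotated transcript of another member with 3 mismatches or fewer, and the longest run shared by a pair was 27 bases. The libraries were not stranded, so RNA from the opposite strand of these loci could not be told apart from their own.

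The 250 bases before the RefSeq start site (GRCm38.p6) are shown next, since the members differ there in the core of the metal response element, the site that MTF-1 binds. Capitals mark each match to TGCACNC or TGCGCNC on either strand. The windows are chr8:94178839-94179088 for Mt1, chr8:94172368-94172617 for Mt2 and chr8:94152357-94152606 for Mt3.
Mt1: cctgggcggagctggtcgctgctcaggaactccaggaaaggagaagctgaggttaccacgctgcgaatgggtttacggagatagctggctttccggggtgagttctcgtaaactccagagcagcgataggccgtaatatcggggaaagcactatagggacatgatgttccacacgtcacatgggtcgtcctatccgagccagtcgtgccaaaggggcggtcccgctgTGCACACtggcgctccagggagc
Mt2: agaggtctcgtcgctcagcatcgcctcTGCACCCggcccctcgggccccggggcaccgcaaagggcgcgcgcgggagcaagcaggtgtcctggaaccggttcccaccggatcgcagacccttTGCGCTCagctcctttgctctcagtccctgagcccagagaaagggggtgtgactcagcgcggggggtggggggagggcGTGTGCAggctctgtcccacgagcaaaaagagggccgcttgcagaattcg
Mt3: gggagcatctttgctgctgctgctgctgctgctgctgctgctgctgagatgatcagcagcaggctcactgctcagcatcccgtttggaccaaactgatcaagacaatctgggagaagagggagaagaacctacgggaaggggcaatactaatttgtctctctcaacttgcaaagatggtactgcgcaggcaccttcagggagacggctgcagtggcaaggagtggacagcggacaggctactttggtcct
Mt2 held 3 matches, Mt1 held 1 and Mt3 held 0, against at least 1 match in 21.4% and at least 3 in 1.26% of 32851 promoter windows of the same length. An antioxidant response core, TGACNNNGC, was found once in the Mt2 window, 79 bases before the start, where it did not overlap a metal response match, and in 0 windows of Mt1 and Mt3. Of all windows, 10.2% held at least 1 match to it. Unannotated transcripts of the assembly start inside each window, and others before the Mt2 and Mt3 windows, so these windows lie before the annotated starts alone. Between the annotated start and the start codon there were 4 metal response matches in 229 bases of Mt1, 3 in 184 bases of Mt2 and 3 in 193 bases of Mt3. Matches in this stretch were not counted over other genes, so how common such numbers are is not known here. A match is a description of the letters and does not show that a factor binds.

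Some libraries stood apart from the rest, and values are given with and without them. Of 10659 transcripts with a median of at least 5 FPKM, the members left out, 20 libraries had over 5% below 0.1 FPKM (7.58 to 21.5%), against 0.347 to 3.63% in the others. These 20 were all mice of BXD-9/TyJ, BXD62, BXD70, BXD75, BXD85 and BXHA1, and single mice of BXD87, BXD-12/TyJ and CXB-3/ByJ. A pair of libraries of CXB-6/ByJ had gene values that differed by at most 0.0071 on the log2 scale, where the next most alike pair of libraries reached 3.91, so both were averaged and counted as 1 mouse. Genes of hypothalamic neurons were present in every library, with median FPKM of 476 for Pmch, 120.2 for Hcrt and 219 for Avp. The expression tables hold no read counts per gene, so no counting error is given.

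All 3 members were among the most abundant RNAs of the tissue. Expression is given as FPKM, a count of fragments scaled to transcript length and library size, which allows levels to be compared between genes. Mt3 had a mean of 270 FPKM (SD 125 over all mice), Mt1 255 (SD 84.6) and Mt2 220 (SD 69.1), which placed them at ranks 121, 135 and 170 of 14079 loci by mean. Once the 20 libraries were set aside, the SD was 34.8 for Mt3, 47.1 for Mt1 and 52.0 for Mt2, so the order of the spreads turned around and Mt3, the neural member, varied least. Over the remaining mice Mt1 ran from 160.4 through a median of 243 to 412 FPKM, Mt2 from 112 through 209.5 to 400.2 FPKM, and Mt3 from 127.97 through 257 to 366.9 FPKM. The quartiles over all mice were 215 and 279.7 FPKM for Mt1, 179 and 247 for Mt2 and 239.9 and 283 for Mt3. In this bulk tissue, fewer expressing cells and less RNA per cell cannot be told apart.

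A pair of libraries set the highest values of all 3 genes. In BXD-12/TyJ, mouse OB-547 had 1345 FPKM of Mt1 where its strain mates had 220 and 305, 865 of Mt2 where they had 202 and 228, and 2215 of Mt3 where they had 257 and 271.7. These log2 differences from the mates, 2.37, 2.00 and 3.06, stood beside a median of 0.09 over all genes and of 2.61 over 54 other loci with a mean of at least 10 FPKM whose longest transcript is at most 600 bases. The same library had the highest value of all mice for 31.3% of genes and a summed gene FPKM of 792801, against a median library of 337533. In CXB-3/ByJ, mouse OB-422 had 677.9 FPKM of Mt1, 621.1 of Mt2 and 770.02 of Mt3, each the second highest of all mice, against 225.1 and 260.6, 199.8 and 290.3, and 243.2 and 279.7 in its mates. The 54 short loci had a median log2 difference of 1.19 between this mouse and its mates. The other 18 libraries did not differ in this way, with a median of 229.3 FPKM for Mt1, 199.1 for Mt2 and 286.8 for Mt3. What part the state of these 2 libraries has in their metallothionein levels was not tested.

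**Figure D1:**
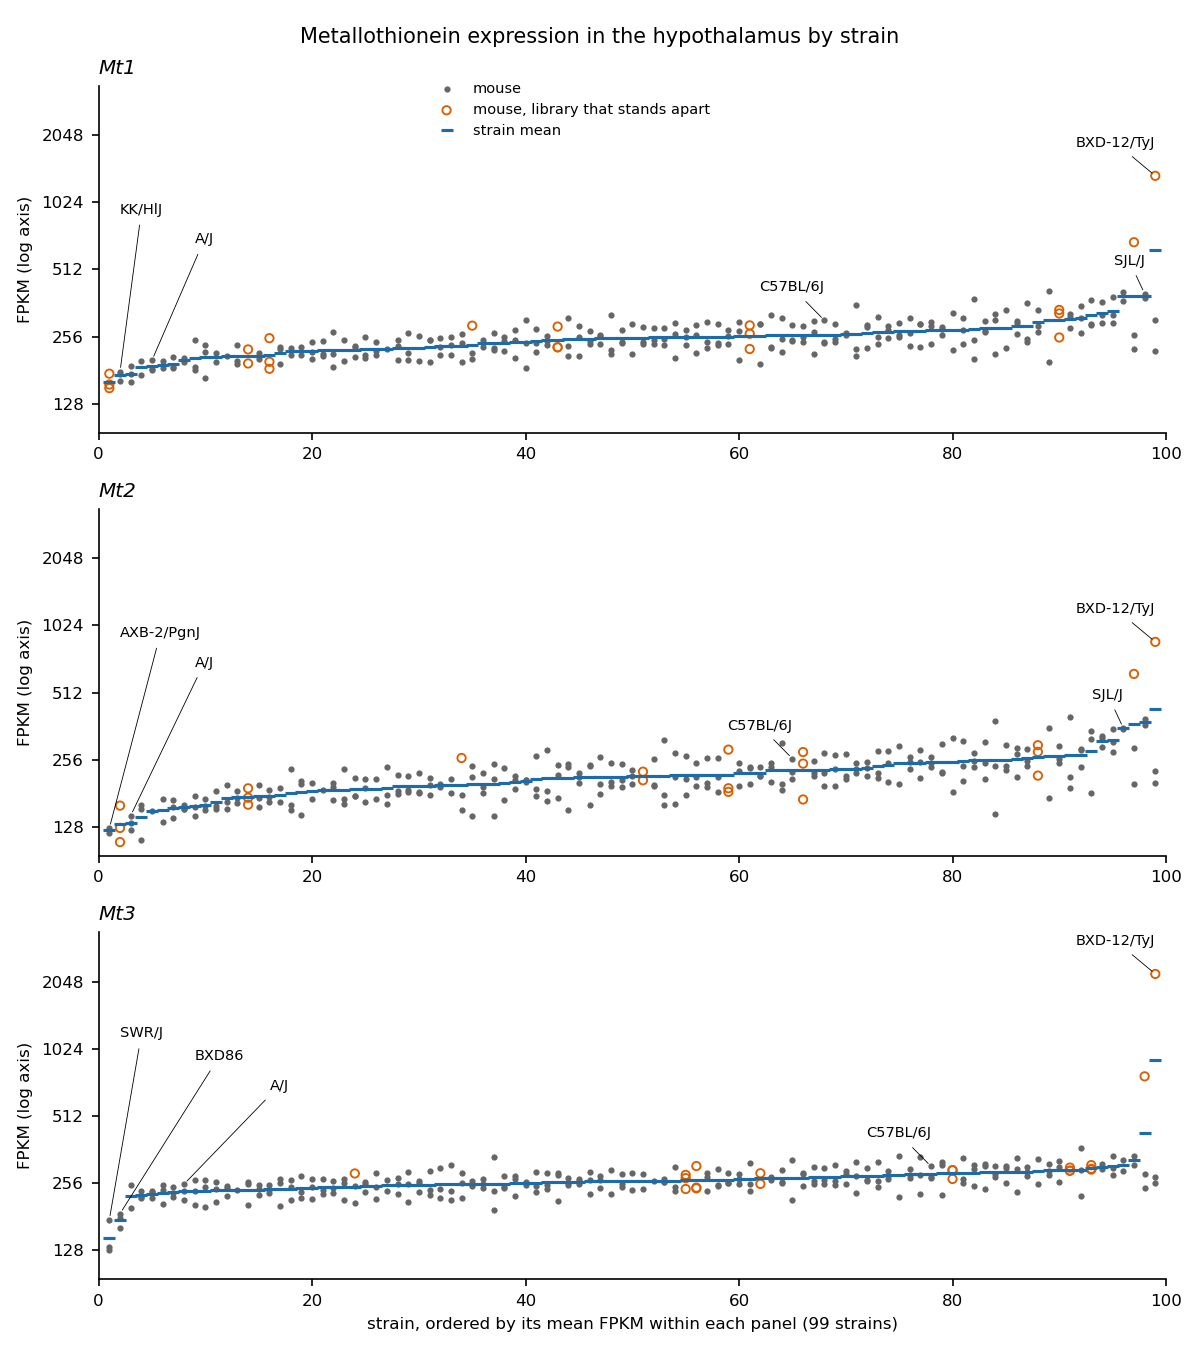
FPKM (log2 axis) of Mt1, Mt2 and Mt3 in each mouse, with the 99 strains ordered along the horizontal axis by their mean in each panel. Grey points are mice, open circles mice whose library stands apart, and short bars strain means. BXD-12/TyJ is highest for each gene through 1 mouse, and SWR/J and BXD86 lie below the other strains in the Mt3 panel but not in the others.

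All 3 genes differed between strains. The limma F test over 99 strains on log2(FPKM + 1), with Benjamini-Hochberg adjustment over all genes, gave adjusted p = 4.94e-06 for Mt1, 2.18e-08 for Mt2 and 0.0118 for Mt3. Differences of this kind were common, since 74.9% of all genes passed the same test. Strain accounted for an estimated 0.30 of the variance of Mt1 (95% interval 0.17 to 0.43), 0.37 of Mt2 (0.24 to 0.49) and 0.15 of Mt3 (0.024 to 0.29), where the median gene had 0.22. In the reduced set the shares were 0.39, 0.42 and 0.32 (median gene 0.26), and the adjusted p-values were 1.44e-08, 4.3e-10 and 2.24e-06, with 80.1% of genes passing. The strain share of Mt3 thus moved from percentile 34.3 to percentile 62.5 among genes, while Mt2 stood at 75.01 and 77.3 and Mt1 at 64.6 and 72.7. Mice of the same strain still differed, with a typical fold of 1.15 for Mt1, 1.19 for Mt2 and 1.12 for Mt3 in the reduced set. In the full set Mt3 lost its call when mice numbered 1 in each strain were left out (adjusted p = 0.239), or those numbered 2 (0.0764), and in the rank-based Kruskal-Wallis test (0.0547).

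The strains with the least Mt1 were largely those with the least Mt2. Among strains with at least 2 mice, Mt1 was lowest in BXD85, with 150.3, 156.1 and 174.6 FPKM, all of them libraries that stand apart. KK/HlJ followed with 162, 174.1 and 178.5 FPKM, then BXD44 with 160.4, 173.8 and 188.2, AXB-2/PgnJ with 173.1 and 199.4, and A/J with 181.8, 183.8 and 200.8. Mt2 was lowest in AXB-2/PgnJ, with 120.6 and 126.4 FPKM. BXD85 came next with 109.5, 126.7 and 159.6 FPKM, and then A/J with 124, 133.5 and 143.9, BXD48 with 111.7, 154.2 and 161.4, and BXD-34/TyJ with 134.8 and 170.5. BXD85, AXB-2/PgnJ and A/J were thus shared by the 5 lowest strains of both genes. Most neighbours in these orders were not separable, as mice of adjacent strains overlapped in all 96 steps for Mt1 and in all but 1 of 96 for Mt2.

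At the high end the ranking of the members also coincided. Leaving aside BXD-12/TyJ and CXB-3/ByJ, whose means rest on the 2 libraries above, SJL/J had 380.5 and 398.5 FPKM of Mt1 and BXA-24/PgnJ had 368.8 and 406.5, ahead of BXD-16/TyJ with 293.5, 320.6 and 383.9. For Mt2 BXA-24/PgnJ had 365.8 and 389.5 FPKM, SJL/J 353.3 and 355.7, and BXD-16/TyJ 277.5, 308.8 and 351.9. Every mouse of these 3 strains exceeded every mouse of the 5 lowest strains, for both genes. Both ends were picked by these same values, so the lack of overlap is a description and no support for a difference. BXA-24/PgnJ and SJL/J were the highest in Mt3 too, with 308.7 and 338.3 FPKM and with 291.3 and 324.6. BXD-16/TyJ was not, with 252.96, 260.8 and 300.8 FPKM of Mt3, which is rank 65 from the lowest of 97 strains.

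Mt3 had its own low strains. SWR/J had 127.97, 132.3 and 175.4 FPKM of Mt3, and only 1 mouse of any other strain lay below its highest mouse. BXD86 had 160.2, 178.2 and 186.7 FPKM, and its mice lay below all mice of the next strain, AXB-2/PgnJ (196.97 and 250.5 FPKM). Both strains were low in Mt3 without being low in its neighbours. SWR/J had 203.7, 218.5 and 243 FPKM of Mt1 and 169.2, 192.4 and 200.96 of Mt2, at ranks 19 and 20 of 97, and BXD86 had 204.99, 211.9 and 255.7 of Mt1 and 175.7, 189.1 and 266.3 of Mt2, at ranks 24 and 39. BXD86 is a BXD strain, and its Mt3 was below that of both founders, which had 269.1, 273.5 and 303.7 FPKM in C57BL/6J and 232.6, 297.3 and 331.9 in DBA/2J. By their means, 30 of the 43 BXD strains, BXD86 among them, lay below both founders in Mt3. In the transcript table the annotated Mt3 transcript had 61.1, 69.6 and 82.0 FPKM in SWR/J and 95.4, 115 and 130.4 in BXD86, where C57BL/6J had 127, 132 and 196, so that BXD86 overlapped C57BL/6J and SWR/J did not. The upstream form TCONS_00335076 had 28.1, 38.7 and 39.2 FPKM in SWR/J, 24.0, 32.5 and 37.0 in BXD86 and 26.5, 63.5 and 73.8 in C57BL/6J, which overlapped both. The strains were picked as the extremes of 97, so these values are a description. A step between neighbouring strains with no overlap of mice occurs at least once in 13.8% of genes.

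Within the strain sets the calls differed by member, and the spread of OB-547 entered each test because the residual spread is pooled over all strains. In BXD all 3 members differed between strains (adjusted p = 3.24e-05 for Mt1, 1.6e-05 for Mt2 and 0.00619 for Mt3 by limma), where 64.02% of genes passed. Without the 20 libraries, and so with 5 BXD strains fewer, the values were 0.000147, 2.88e-05 and 0.00242, with 58.03% of genes passing. Mt3 lost its call in BXD when the mice numbered 2 were left out (adjusted p = 0.525). In the classical inbred strains Mt1 (adjusted p = 0.0215) and Mt2 (0.000394) passed and Mt3 (0.0638) did not, with 47.4% of genes passing. Without OB-547, which is not a mouse of that set, Mt3 passed there at 1.54e-05, and without the 20 libraries at 9.33e-08, when 63.6% of genes passed. Estimated within the classical strains alone, the strain share of variance was 0.54 for Mt1, 0.56 for Mt2 and 0.56 for Mt3.

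AXB/BXA and CXB gave calls that depended on single libraries. In AXB/BXA Mt2 passed (adjusted p = 0.0019) and Mt1 (0.0693) and Mt3 (0.996) did not, with 22.1% of genes passing. Without OB-547 Mt1 passed as well (0.00316), as it did without the 20 libraries (0.00035, 35.1% of genes). In CXB Mt1 (0.0326) and Mt2 (0.0124) passed and Mt3 (0.296) did not, with 16.4% of genes passing. Without the libraries that stand apart, of which OB-422 was the only library here, Mt1 stayed below the threshold (0.0261) and Mt2 did not (0.0716), with 14.8% of genes passing. In BXH, with 6 strains, no member passed, at adjusted p = 0.744, 0.879 and 0.98 for Mt1, Mt2 and Mt3, and 18.4% of genes passed there (19.7% in the reduced set, where the members had 0.833, 0.685 and 0.792). None of the 3 had an unadjusted p below 0.05 in BXH.

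**Figure D2:**
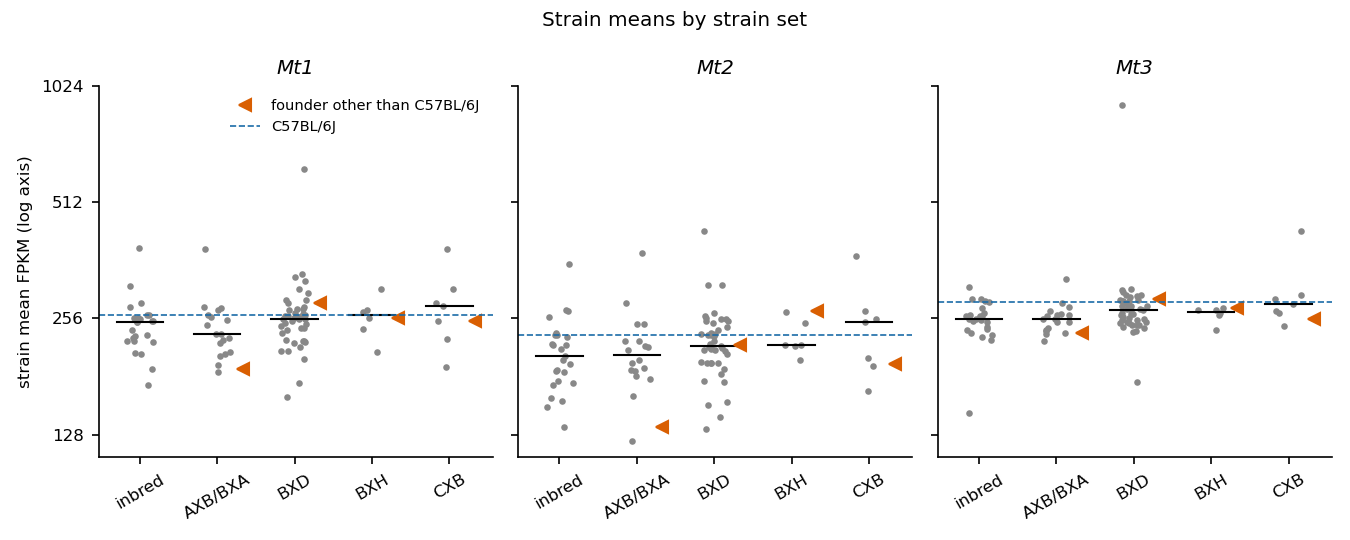
Strain mean FPKM (log2 axis) of Mt1, Mt2 and Mt3 in the 5 strain sets. Each grey point is a strain, black bars are set medians, the dashed line is C57BL/6J and triangles mark the other founder of each recombinant inbred set. A/J lies near the bottom of the AXB/BXA strains for Mt1 and Mt2.

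Of the founders, A/J was the low strain, and its deficit was greatest in Mt2. A/J mice had 124, 133.5 and 143.9 FPKM of Mt2 where C57BL/6J mice had 209.03, 225.5 and 259. This was 0.58-fold, a log2 difference of -0.78 (SE 0.24, limma adjusted p = 0.0218), in a comparison that called 7.98% of genes in either direction and 4.92% as lower in A/J. Mt1 was 181.8, 183.8 and 200.8 FPKM in A/J and 239.4, 242.5 and 302.6 in C57BL/6J, a log2 difference of -0.46 (SE 0.21, adjusted p = 0.205). Mt3 was 215.8, 235.4 and 253.2 against 269.1, 273.5 and 303.7 FPKM, a log2 difference of -0.26 (SE 0.22, adjusted p = 0.552). All A/J mice lay below all C57BL/6J mice for each of the 3 genes, which was so for 17.1% of all genes. Setting the 20 libraries aside, none of them of these strains, the adjusted p-values were 0.00381, 0.0543 and 0.223, with 10.7% of genes called and 6.71% called lower. With the mice numbered 1 or those numbered 3 left out, Mt2 in A/J lost its call (adjusted p = 0.303 and 0.138).

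BALB/cJ, C3H/HeJ and DBA/2J did not pass against C57BL/6J in any member, in comparisons that called 6.75%, 7.56% and 6.85% of genes. Their log2 differences from C57BL/6J ran from -0.25 for Mt2 in BALB/cJ (SE 0.24) to 0.14 for Mt2 in C3H/HeJ (SE 0.24), with adjusted p from 0.682 to 0.986. C3H/HeJ held a wide spread of Mt2, with mice at 190.8, 213.7 and 400.2 FPKM. DBA/2J mice had 177.8, 210.3 and 266.3 FPKM of Mt2 and 213.9, 303.8 and 324.7 of Mt1, and BALB/cJ mice 179.7, 185.1 and 219.2 of Mt2 and 213.5, 222.6 and 319.6 of Mt1. The 4 contrasts share the C57BL/6J mice. By limma, none of these 9 differences had an unadjusted p below 0.05.

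Most AXB/BXA strain means lay between those of their founders, and most BXD strain means lay outside the interval between theirs. Of 18 AXB/BXA strains, 13 had a mean of Mt1 between those of A/J and C57BL/6J, 1 was lower and 4 were higher, and the counts were the same for Mt2. For Mt3 15 were between, 2 lower and 1 higher. Of 43 BXD strains, 28 were below both founders in Mt1, 6 between and 9 above, and for Mt2 the counts were 22, 3 and 18 and for Mt3 30, 5 and 8. The BXD founders differed little, with means of 261.5 and 280.8 FPKM for Mt1, 231.2 and 218.2 for Mt2 and 282.1 and 287.3 for Mt3, so that the interval between them was narrower than the spread among mice of a strain. In BXH 2 strains were below, 1 between and 3 above for Mt1, and in CXB 2, 1 and 4. Such counts depend on the width of the interval between the founder means, and they were not made over all genes.

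The deposited transcripts split the members into more than their annotated forms. A transcript is called annotated here where the assembly matched it in full to GENCODE, and unannotated where it shared a splice junction with the gene but differed elsewhere. For Mt1 the annotated transcript TCONS_00335101 carried 165 FPKM (SD 49.7 over all mice), which was 65.3% of the gene, and the unannotated TCONS_00335099, which starts upstream, carried 10.2. A further 30.8% of the Mt1 gene value was in transcripts not analysed here, and the start-site table placed 88.1 FPKM at that upstream start. For Mt3 the annotated TCONS_00335078 carried 162 FPKM (SD 75.7), or 60.0%, and the upstream TCONS_00335076 carried 46.1. Mt2 was different, since its annotated TCONS_00335096 carried 4.90 FPKM (SD 2.15), 2.33% of the gene. Nearly all of the rest of Mt2 was in TCONS_00335091, TCONS_00335093 and TCONS_00335095, at 83.3, 49.3 and 77.8 FPKM, which together made 95.3%. These 3 have 4 exons, lengths of 400 to 431 bases and starts upstream of the annotated 94172618.

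The forms differed between the libraries that stand apart and the others. In the 18 libraries, leaving aside OB-547 and OB-422, the upstream Mt3 form TCONS_00335076 had a median of 2.51 FPKM and a highest value of 5.67, below all libraries that do not stand apart, which ran from 15.001 to 92.3. TCONS_00335095 of Mt2 had a median of 0 and a highest value of 3.99, against 15.2 to 170 FPKM in the others, and TCONS_00335099 of Mt1 a median of 1.10 against 10.3. Other forms held more there: TCONS_00335091 held a median of 94.1% of the Mt2 gene value in these libraries and 34.7% in the others, and the annotated Mt3 transcript 98.7% and 56.1%. The gene values of the 18 and the other libraries overlapped for all 3 members.

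**Figure D3:**
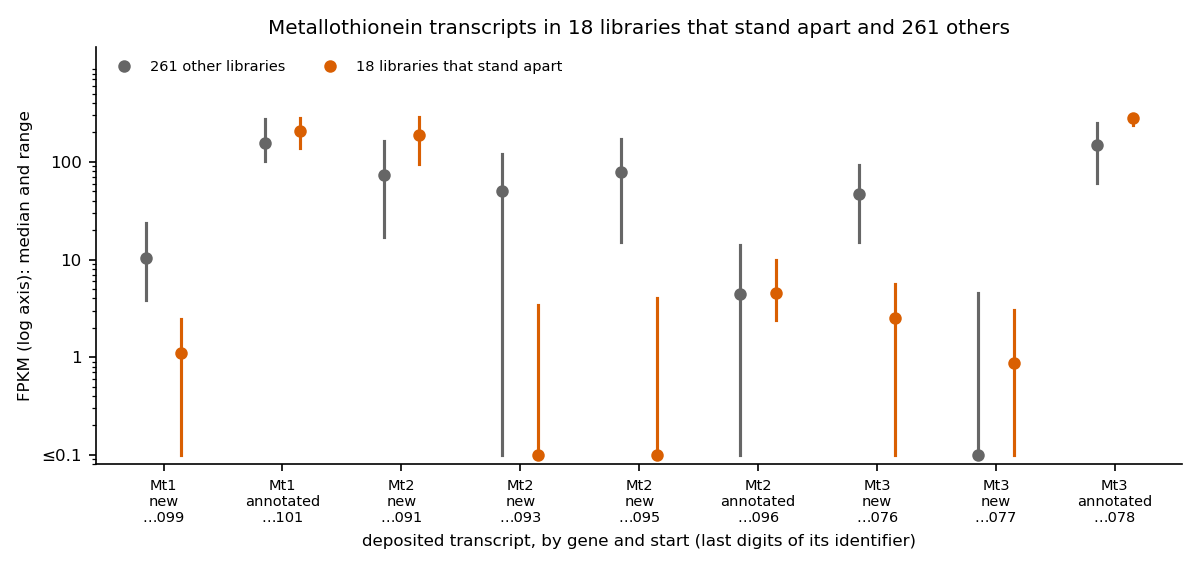
Median (points) and range (lines) of FPKM, on a log10 axis with values under 0.1 drawn at 0.1, of the 9 deposited metallothionein transcripts. Labels give the gene, whether the transcript is annotated or unannotated (new) and the last digits of its identifier. Grey shows the other libraries and orange the 18 libraries that stand apart without OB-547 and OB-422. The upstream forms ending in 099, 093, 095 and 076 are near 0 in the 18 libraries, and those ending in 091 and 078 are higher there.

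Strain tests of the transcripts followed that division. Over all mice, 8 of the 9 passed the limma F test, where 45.9% of all transcripts passed, with TCONS_00335077 of Mt3 (adjusted p = 0.945), present at 0.52 FPKM on average, as the exception. Without the 20 libraries 4 of 9 passed, where 30.9% of all transcripts did. The share of variance between strains fell from 0.84 to 0.057 for TCONS_00335076 (adjusted p = 0.317), from 0.66 to 0.091 for TCONS_00335099 (0.174) and from 0.31 to 0.058 for TCONS_00335091 (0.299). The 4 that passed were the annotated transcripts of Mt1 (strain share 0.23, adjusted p = 0.00239) and Mt2 (0.27, 0.000211), and TCONS_00335095 (0.21, 0.00426) and TCONS_00335093 (0.17, 0.0172) of Mt2. The 6 strains whose mice were all in the 20 libraries are absent from the reduced test.

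Mt1 and Mt2 varied together closely, and over strain means r with Mt3 was lower. Over the means of 99 strains Pearson's r was 0.90 between Mt1 and Mt2 (Spearman's rho 0.88), 0.57 between Mt1 and Mt3 (rho 0.49) and 0.46 between Mt2 and Mt3 (rho 0.43). All permutation p-values were at or near 1e-05, the smallest that 100000 permutations can give, and adjusted over the 3 pairs they were at most 3e-05. Dropping the 2 most outlying strains on the first gene's axis gave r of 0.89, 0.50 and 0.43. Over the deviations of mice from their strain means, in strains with at least 2 mice, r for the same pairs was 0.86, 0.84 and 0.66 (rho 0.81, 0.72 and 0.53), each with p = 1e-05, permuting within strains. Once the 20 libraries were set aside, r over strain means was 0.89, 0.50 and 0.41, and within strains 0.81, 0.73 and 0.51. Within strains the order of the first 2 pairs was not stable, since r of Mt1 with Mt3 exceeded that with Mt2 on FPKM in place of the log2 scale (0.93 and 0.91) and without the mice numbered 1 (0.89 and 0.86). The differences between these r were not tested. FPKM values of a library share its scaling, and quantile normalization gave lower r for the pairs with Mt3, 0.36 and 0.30 over strain means and 0.61 and 0.38 within strains.

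**Figure D4:**
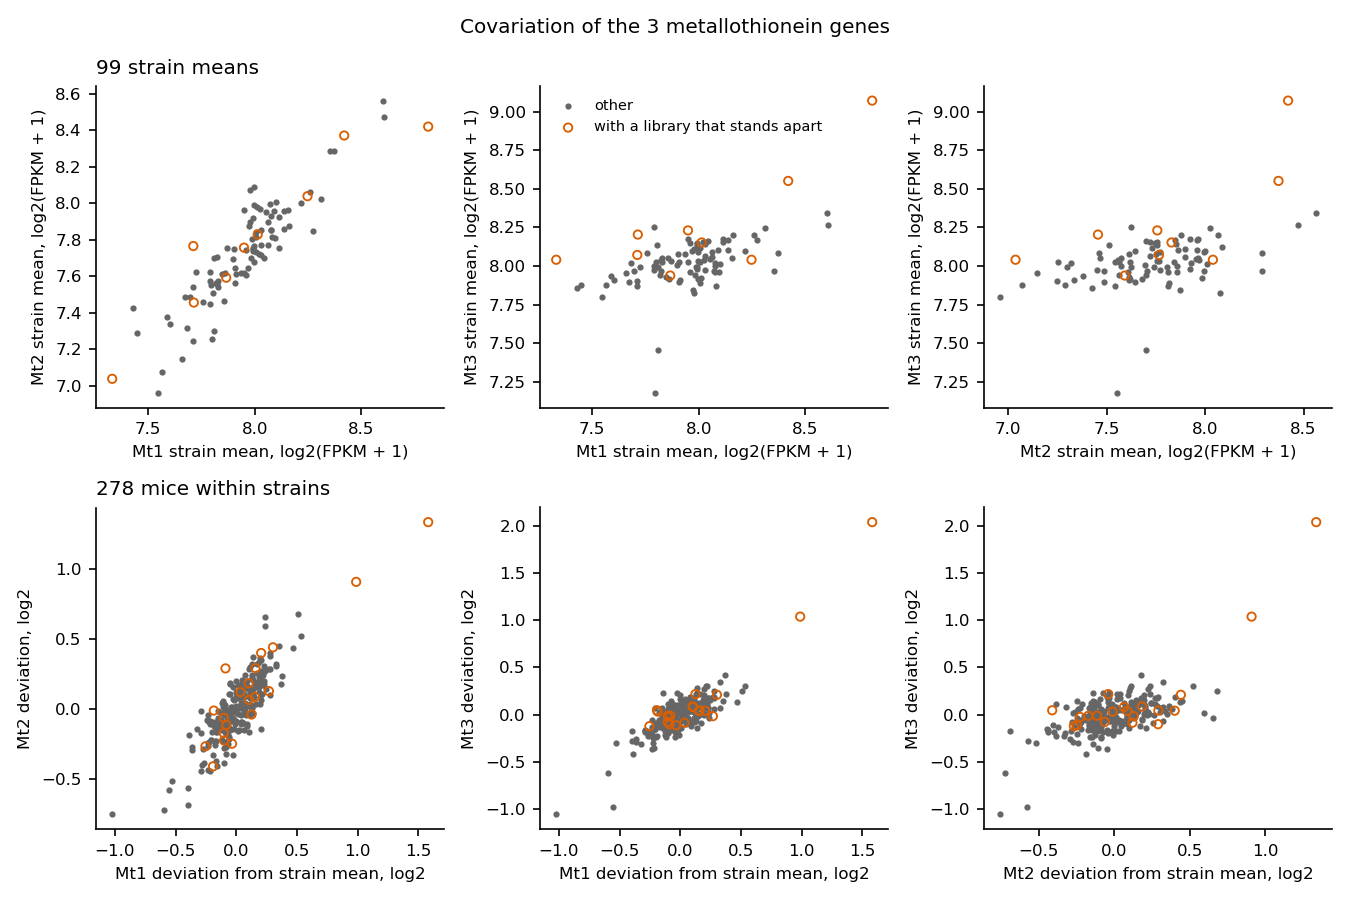
Pairwise plots of Mt1, Mt2 and Mt3 on the log2 scale, over 99 strain means (top) and over the deviations of mice from their strain means (bottom). Open circles are strains with, or mice with, a library that stands apart. OB-547 and OB-422 form the upper right points of the bottom row and pull the means of their strains, so that their mates lie at the lower left.

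The correlation of Mt1 with Mt2 passed in 4 of the 5 sets. Over strain means r was 0.93 in AXB/BXA (18 strains), 0.91 in BXD (43), 0.86 in the classical strains (25), each with permutation p = 1e-05, and 0.98 in CXB (7 strains, exact permutation p = 0.000397). In BXH it was 0.60 (6 strains, exact permutation p = 0.204), with rho of 0.89 (exact permutation p = 0.0333, adjusted 0.1) and r of 0.78 without the 2 farthest strains. The pairs with Mt3 were less even. Mt1 and Mt3 had r of 0.83 in AXB/BXA (p = 0.00014) and 0.88 in CXB (7 strains, exact permutation p = 0.00635), but 0.52 in BXD (p = 0.00269), where rho was 0.24 (p = 0.126) and r without the 2 farthest strains 0.24. In the classical strains it was 0.47 (permutation p = 0.0364, adjusted 0.0547), with rho of 0.55 (permutation p = 0.00521, adjusted 0.00781). Mt2 and Mt3 had r of 0.86 in AXB/BXA, 0.90 in CXB, 0.35 in BXD (permutation p = 0.0277) and 0.32 in the classical strains (p = 0.116). In the reduced set the BXD values were 0.34 (adjusted p = 0.0566) and 0.21 (0.209), so that in BXD the relations with Mt3 no longer passed. In CXB, without OB-422, r was 0.92, 0.94 and 0.78 for the 3 pairs.

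The balance of Mt1 and Mt2 itself differed between strains. The log2 ratio of Mt1 to Mt2 averaged 0.22 (SD 0.18 over 280 mice), so Mt1 was 1.16-fold Mt2, and strain accounted for 0.26 of its variance (95% interval 0.13 to 0.40, permutation p = 6e-05). Without the 20 libraries the share was 0.29 (permutation p = 1e-05). AXB-2/PgnJ had the highest mean ratio, with mice at 0.45 and 0.72, and SM/J the lowest, with mice at -0.14, -0.13 and -0.02. A/J mice stood at 0.34, 0.46 and 0.69 and C57BL/6J mice at 0.10, 0.19 and 0.22, without overlap. SM/J is thus a strain where Mt2 (238.8, 284.3 and 285.1 FPKM) exceeded Mt1 (235.999, 258.2 and 260.6), and A/J and AXB-2/PgnJ are low in both genes and lower in Mt2.

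Of the 7 genes most like Mt1 and the 7 most like Mt2 in their strain means, beside each other, Prodh, Dpm2 and Tsc22d4 were in both lists. Mt1 had its highest r with Prodh (0.66), the proline dehydrogenase of mitochondria, Dpm2 (0.63), Fam195b (0.63), Arl2 (0.62), Nkain4 (0.61), Tsc22d4 (0.60) and Anapc11 (0.60). Mt2 had Prodh (0.65), Tsc22d4 (0.59), Fam107a (0.54), Mfsd2a (0.54), a lipid transporter of the blood-brain barrier, Hepacam (0.52), a cell adhesion protein of glia, Dpm2 (0.51) and Htra1 (0.51). Dpm2, Fam195b, Arl2 and Anapc11 had low strain shares of variance over all mice, of -0.015, -0.004, 0.03 and 0.04. The other genes of both lists ran from 0.22 for Tsc22d4 to 0.66 for Fam107a, where the median gene had 0.22. Over 11350 loci with 1 gene name and mean FPKM of at least 1, the median r was 0.013 with Mt1 and 0.015 with Mt2, and 0.65% and 0.070% of loci reached 0.5. In the reduced set Tsc22d4 (0.70 with Mt1 and 0.64 with Mt2), Prodh (0.67 and 0.65), Hepacam (0.56 and 0.53) and Fam107a (0.54 and 0.53) were in both lists, with Dpm2 (0.56) and Cd81 (0.55) between them in that of Mt1. The lowest were Ero1l (-0.61), Fam63b (-0.60) and Kpna4 (-0.59) for Mt1 and Kpna4 (-0.52), Wdr59 (-0.49) and Nbea (-0.47) for Mt2.

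Mt3 had other genes beside it. Its highest r over strain means were with Brk1 (0.73), Polr2f (0.69), Cuedc2 (0.69), Fosl1 (0.69), Hspbp1 (0.67), Tpgs1 (0.67), Timm13 (0.67) and Stmn3 (0.67), and its lowest with Nedd4 (-0.66), Golph3 (-0.65) and Ogt (-0.65). The strain share of variance of these genes over all mice ran from -0.09 for Tpgs1 to 0.12 for Polr2f, where the median gene had 0.22. Their strain means thus held little difference between strains beyond the spread among mice. Setting the 20 libraries aside, the highest r of Mt3 over strain means was with Ndrg2 (0.52), an astrocyte gene, followed by Map1lc3a (0.51), Brk1 (0.51) and Timm13 (0.51), with Mt1 at 0.50. Within strains its 8 highest were Cox4i1 (0.93), Uqcr11 (0.92), Ndufa11 (0.92) and Ndufb7 (0.92), which encode subunits of the respiratory chain, the ribosomal gene Rps15 (0.92), and Hras (0.92), Sepw1 (0.92) and Cuedc2 (0.92). Without the 20 libraries Uqcr11 (0.85) and Fkbp8 (0.84) led. Mt1 within strains had Mt2 (0.86), Aldoc (0.85), Mt3 (0.84), Ndufs6 (0.83) and Rabac1 (0.83) as its 5 highest, with Pcm1 (-0.82) lowest. Within strains such values were common, since 17.8% of loci reached 0.5 with Mt3, 14.6% with Mt1 and 6.29% with Mt2, and 6.04%, 3.09% and 0.14% did so without the 20 libraries. The mean level of the 54 short loci had r of 0.79 with Mt3, 0.72 with Mt1 and 0.55 with Mt2 within strains, and 0.50, 0.48 and 0.32 without the 20 libraries. Its part in these likenesses was not tested.

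Genes that handle zinc and copper, and genes of pathways that induce Mt1 and Mt2, were read from lists in the same way. Mtf1, which encodes the metal sensor, was at 5.61 FPKM (SD 0.80 over all mice), did not pass the limma test between strains (adjusted p = 0.263) and had r of -0.06, -0.03 and 0.12 with Mt1, Mt2 and Mt3 over strain means. Of the zinc exporters 8 of 10 listed were measured and 7 differed between strains, as did 74.9% of all genes. Over strain means 0 correlated with Mt1 or Mt2 at an adjusted p below 0.05. With Mt3 2 were negative, Slc30a4 (-0.29, 0.0154) and Slc30a7 (-0.37, 0.000987). Within strains 4 were negative with each member and 1, 0 and 1 positive with Mt1, Mt2 and Mt3, and in the reduced set 4, 3 and 6 were negative. Of all genes 26.2%, 21.4% and 26.5% were negative within strains over all mice, and 33.2%, 28.5% and 33.03% positive. In the reduced set 22.3%, 13.8% and 24.4% were negative. Slc30a1, the exporter of the cell membrane and itself a target of MTF-1, had r of 0.21 with Mt1 (adjusted p = 0.113) and 0.20 with Mt2 (0.17). Of 11 measured zinc importers 8 differed between strains, again beside 74.9% of all genes. Over strain means 1, 1 and 2 importers were positive with Mt1, Mt2 and Mt3, and 1, 1 and 2 were negative. Their median r was 0.02, 0.005 and 0.04. Within strains 5, 4 and 5 were positive and 3 negative with each member. Slc39a7, which moves zinc out of the secretory pathway, had r of 0.52 with Mt1, 0.38 with Mt2 and 0.60 with Mt3. Once the 20 libraries were set aside, it was 0.37 with Mt1 (rho 0.37, adjusted p = 0.0148), 0.25 with Mt2 (0.269) and 0.41 with Mt3 (rho 0.47, 0.00939). The share of all genes with a positive call over strain means was 13.8% for Mt1, 5.82% for Mt2 and 20.4% for Mt3, and 3.25%, 0.746% and 3.42% without the 20 libraries. Negative calls made up 11.7%, 4.75% and 13.7% of genes, and 1.66%, 0.121% and 1.07%.

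Copper genes correlated with Mt3 and Mt1 over all mice, and fewer passed without the 20 libraries. Of 8 measured, 5 correlated positively with Mt1 and the same number with Mt3, with 0 for Mt2. They were Ccs, Atox1 and Cox17, which are copper chaperones, Sod1, a copper and zinc superoxide dismutase, and Commd1. In the reduced set 0 passed for Mt1 or Mt2, and 3 passed for Mt3, which were Cox17 (r 0.38, adjusted p = 0.0235), Ccs (0.32, 0.0401) and Sod1 (0.31, 0.0462). Positive calls over strain means made up 13.8%, 5.82% and 20.4% of all genes for Mt1, Mt2 and Mt3 over all mice. Without the 20 libraries they made up 3.25%, 0.746% and 3.42%. Sod1 differed between strains only in the reduced set (adjusted p = 0.00152, against 0.388 over all mice).

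In the list of oxidant response genes Gstm1, a glutathione transferase, was the gene that correlated with all 3 metallothioneins with and without the 20 libraries. Its r was 0.49 with Mt1, 0.47 with Mt2 and 0.54 with Mt3 over all mice, and 0.40 (rho 0.39, adjusted p = 0.00676), 0.40 (rho 0.39, 0.0244) and 0.43 (rho 0.41, 0.003) without them. Leaving out the 2 farthest strains as well gave 0.38, 0.37 and 0.41. In the reduced set Keap1 (0.38, adjusted p = 0.0114) and Hmox1 (0.34, 0.0308) also passed with Mt1, and Slc7a11, the cystine transporter, was negative with Mt3 (-0.33, 0.0457). Of 14 genes in this list, 5 were positive with each of the 3 members over all mice, and 3, 1 and 1 with Mt1, Mt2 and Mt3 in the reduced set. Of all genes 13.8%, 5.82% and 20.4% were positive over all mice, and 3.25%, 0.746% and 3.42% in the reduced set. Negative calls over all mice made up 11.7%, 4.75% and 13.7% of genes. Over all mice Gclc and Gclm, the subunits of the enzyme that starts glutathione synthesis, were negative with Mt1 (-0.42 and -0.28), and Gclc (-0.35) and Slc7a11 (-0.39) with Mt3. The median r of the list with Mt1 was 0.08 over all mice, beside 0.02 over all genes.

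Most genes induced by glucocorticoids were positive with Mt2 among mice of the same strain. Within strains 8 of 12 measured genes were positive with Mt2 and 0 negative, where 28.5% of all genes were positive and 21.4% negative. For Mt1 33.2% and 26.2% of all genes were, and for Mt3 33.03% and 26.5%, and 6 and 5 of the 12 were positive. Without the 20 libraries 11 of 12 were positive, where 17.4% of all genes were, and the counts for Mt1 and Mt3 were 8 and 6 of 12 (27.04% and 29.2% of all genes). Negative calls over all genes were 22.3%, 13.8% and 24.4% for Mt1, Mt2 and Mt3, with 0 in this list. Over strain means 6 of 12 were positive with Mt2 in all mice and 2 in the reduced set, Plin4 (r 0.47, adjusted p = 0.0122) and Tsc22d3 (0.37, 0.0442). Of all genes 5.82% and 0.746% were positive with Mt2 over strain means in these sets. Plin4 encodes a lipid droplet protein and Tsc22d3 the glucocorticoid-induced leucine zipper protein. Plin4 within strains had r of 0.56 with Mt2 and 0.21 with Mt3 in the reduced set, and its strain-mean r with Mt1 fell from 0.39 to 0.20 without the 2 farthest strains. Fkbp5, another gene of this list, had r of 0.31 with Mt2 in both sets, at adjusted p = 0.028 and 0.132. Of 7 immediate early genes, which respond to neuronal activity and handling, 7, 6 and 6 were positive with Mt1, Mt2 and Mt3 within strains over all mice and 6, 3 and 4 in the reduced set.

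Markers of cell types were summed per mouse to see which moved with the members, in a family of 36 pairs. All 11 astrocyte markers were measured, and their summed FPKM ran from 902 through a median of 1078 to 2018 over all mice. Over strain means this sum had r of 0.55 with Mt1, 0.49 with Mt2 and 0.46 with Mt3 (permutation, adjusted p = 6e-05, 6e-05 and 0.00036), and rho of 0.55, 0.54 and 0.46. In the reduced set r was 0.50, 0.44 and 0.32 (adjusted p = 0.00036, 0.00036 and 0.0354), and within strains 0.41, 0.32 and 0.36. Single astrocyte genes did not all take part. Aldh1l1, a folate enzyme that marks astrocytes, in the reduced set had r of 0.47, 0.42 and 0.35 with Mt1, Mt2 and Mt3, Aldoc had 0.44 with Mt1 and Gfap 0.31, and 8 of the 11 did not pass with Mt1. Within strains in the reduced set 5 of the 11 were negative with each member, namely Aqp4, Slc1a3, Slc1a2, Gja1 and Slc4a4 (r with Mt1 from -0.49 to -0.28), and 5, 4 and 5 were positive with Mt1, Mt2 and Mt3. Aldoc (466 FPKM, r 0.71) is the most abundant gene in that sum. By set, r of the sum with Mt1 was 0.70 in AXB/BXA, 0.67 in the classical strains, 0.56 in BXD, 0.95 in CXB and 0.02 in BXH.

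The summed markers of other cell types moved with the members to different degrees, and single markers did not all take part. The endothelial sum (5 of 6 markers measured) had r of 0.46, 0.43 and 0.49 over strain means and 0.34, 0.33 and 0.35 without the 20 libraries, all with adjusted p below 0.05. Within strains in the reduced set its r was 0.18, 0.16 and 0.17, none past the threshold. Of the 5 endothelial genes, 1, 1 and 0 were positive over strain means in that set, as were 3.25%, 0.746% and 3.42% of all genes. Within strains 2, 1 and 2 of them were positive, and 2 were negative with each member. The microglial sum (6 of 6) had 0.39, 0.36 and 0.36, and 0.25, 0.26 and 0.13 in the reduced set. Within strains in that set it had 0.38, 0.28 and 0.48, all past the threshold, beside 0.41, 0.32 and 0.36 for astrocytes. Of the 6 microglial genes taken singly, 2 were positive there with each member, and 0, 1 and 0 were negative. Of all genes 27.04%, 17.4% and 29.2% were positive and 22.3%, 13.8% and 24.4% negative. The ependymal and tanycyte sum (6 of 8) had 0.29, 0.24 and 0.30, and 0.18, 0.14 and 0.21 in the reduced set, none of which passed there, and within strains it had 0.39, 0.31 and 0.40 in that set. Blood markers (5 of 5) had 0.28, 0.27 and 0.13, of which the value with Mt1 still passed in the reduced set (0.27, permutation, adjusted p = 0.0354). Within strains in that set they had 0.38, 0.28 and 0.28, all past the threshold. Oligodendrocyte markers (6 of 6) had 0.20, 0.23 and 0.19, and those of meningeal fibroblasts (2 of 5) 0.03, 0.10 and -0.03. Within strains in the reduced set oligodendrocyte markers had 0.24, 0.13 and 0.31, of which the value with Mt2 did not pass. Neuronal markers (8 of 8) had -0.08, -0.11 and -0.15 over strain means, none past the threshold. Within strains over all mice they had -0.29, -0.24 and -0.28, and those with Mt1 and Mt2 passed (permutation, adjusted p = 0.0171 and 0.0245). None passed within strains in the reduced set (-0.13, -0.08 and -0.06). Markers of anterior pituitary, thalamus and choroid plexus, which border the hypothalamus, did not pass for any member over strain means. This was so although the pituitary sum ran from 0.589 to 16462 FPKM between mice, and its r with Mt1, Mt2 and Mt3 was -0.13, -0.05 and -0.15. The part of cell composition in the metallothionein levels was not tested.

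**Figure D5:**
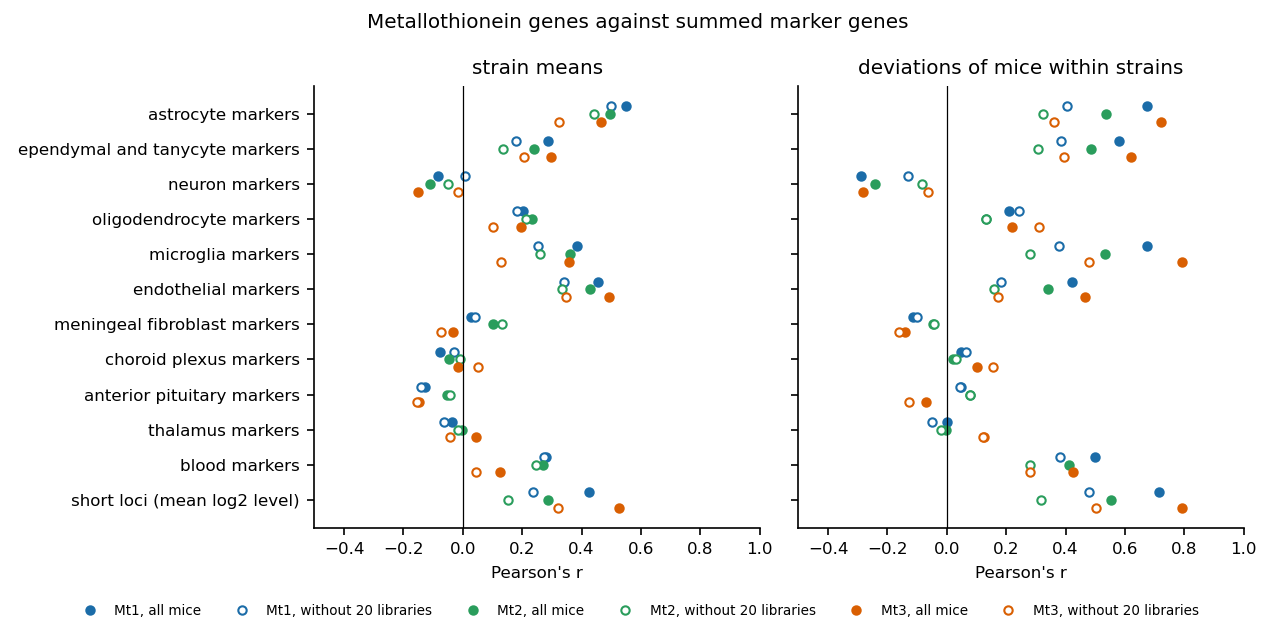
Pearson's r of Mt1, Mt2 and Mt3 with the summed FPKM of marker genes of each cell type or neighbouring tissue (log2 scale) and with the mean level of 54 short loci, over strain means (left) and over deviations of mice within strains (right). Filled points are all mice and open points leave out the 20 libraries. Astrocyte markers lie highest on the left in the reduced set for Mt1 and Mt2, and neuronal markers lie near or below 0.

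Some genes around the cluster correlated with its members over all mice, in both directions, and 1 did so in the reduced set. Of 11 measured loci within 500 kb, 9 differed between strains over all mice and all 11 did in the reduced set. Over all genes 74.9% and 80.1% did, so such differences were common everywhere. Arl2bp, which encodes a binding partner of the small GTPase ARL2, had the highest strain share of them, 0.77, at 63.9 FPKM (SD 8.59 over all mice), and its r with Mt1, Mt2 and Mt3 over strain means was -0.01, -0.04 and -0.04. Over all mice Rspry1 was negative with all 3 members (r -0.40, -0.35 and -0.28), and Bbs2, a gene of the primary cilium upstream of Mt3, was positive with Mt3 (0.39, adjusted p = 0.00186). Among the 11 loci, 2 were positive and 2 negative with Mt1, 0 and 1 with Mt2, and 3 and 2 with Mt3, the others being Ogfod1 (negative with Mt1 and Mt3) and Fam192a and Pllp (positive with both). Of all genes 13.8%, 5.82% and 20.4% were positive and 11.7%, 4.75% and 13.7% negative, so such calls were common elsewhere too. Bbs2 with Mt3 in the reduced set was the only call among these loci (0.34, rho 0.21, adjusted p = 0.0348), and r was 0.14 without the 2 farthest strains. In that set 3.42% of all genes were positive with Mt3. The median strain-mean r of the 11 loci was 0.03 with Mt1, 0.01 with Mt2 and 0.07 with Mt3, beside 0.02, 0.02 and 0.03 over all genes.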

How the data were processed

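RNA was taken from the whole hypothalamus of single male mice, and unstranded mRNA libraries were sequenced as paired reads of 50 bases. Per the submitters' processing notes and the study's methods, the authors aligned reads to mm10 with STAR 2.3.1, built transcript models per strain with Cufflinks 2.2.0, joined these to GENCODE and computed the deposited FPKM values with Cuffnorm 2.2.1. They kept features detected, and expressed at a set level, in a minimum number of samples. No counts per gene were used, so no counting error is given, and the mapped reads that the study lists for each library entered as a covariate in an alternative only.

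Strains were compared on log2(FPKM + 1) by limma 3.58.1 (R 4.3.3), with strain as the factor over 280 mice, F tests over all strains or within a set, contrasts against C57BL/6J, and Benjamini-Hochberg adjustment over all features of the table. A call is an adjusted p below 0.05. Log2 differences are on the log2(FPKM + 1) scale. The strain share of variance is an intraclass correlation with its 95% interval. Correlations used 100000 two-sided permutations, within strains for deviations, or all permutations (exact) in sets of 7 strains or fewer (Python 3.11.15, scipy 1.17.1). Scripts were tested on simulated data. Genes are named because they are members, belong to the lists, lie within 500 kb, or are the 8 highest and 3 lowest in r with a member. Strains are named as the 5 highest and 5 lowest, founders, or strains with libraries that stand apart. The members and lists were chosen with earlier results of these data known. Alternatives were other pseudocounts, a filter on low values, quantile normalization, read mapping covariates, a Kruskal-Wallis test and leaving out mice. Leaving out the 20 libraries, and merging a pair of libraries, were chosen after seeing the data. Sequences come from RefSeq (GRCm38.p6) and GENCODE. 1 mouse whose labels name 2 strains entered no strain comparison.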

Additional observations from a re-analysis of the deposited data

How the results depend on the processing

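No called result changed direction under any alternative run, but 14 values that miss the threshold changed sign. Of the values for single genes, transcripts or marker sums, 562 kept their side of the threshold, 11 passed it newly and 42 fell short, beside the 14. For whole comparisons 226 were classed as unchanged, 4 as stronger and 11 as weaker. Where such a value is a count of members or transcripts called, a small change in the count is classed as unchanged. A drop from 3 members to 2, as when Mt3 lost its call, is thus among the 226. Leaving out the mice of 1 number, the log2 difference from C57BL/6J ran from -0.30 to 0.12 for Mt1 in BALB/cJ. In C3H/HeJ it ran from -0.21 to 0.16 for Mt1, -0.26 to 0.43 for Mt2 and -0.15 to 0.056 for Mt3, and in DBA/2J from -0.087 to 0.38, -0.32 to 0.12 and -0.13 to 0.21. Mt3 in DBA/2J was -0.0072 under quantile normalization and -0.065 with the mapping covariates. With the 20 libraries left out, r over strain means turned to 0.052 for choroid plexus markers with Mt3, 0.0082 for neuronal markers with Mt1 and -0.043 for thalamus markers with Mt3. Without the 20 libraries, 4 of the 9 transcripts differed between strains in place of 8. In AXB/BXA 2 members passed in place of 1 under quantile normalization, without OB-547, without OB-547 and OB-422, and without the 20 libraries. In CXB 1 passed in place of 2 without the 20 libraries and without OB-547 and OB-422. Leaving out the mice of 1 number in turn gave 0 to 1 members in the classical strains (2 with all mice), 2 to 3 in BXD, 0 to 1 in AXB/BXA, 0 to 3 in CXB and 0 to 1 for A/J against C57BL/6J. These fits hold fewer mice, and over all genes the strain test then called 6421 to 8641 in place of 10547, and over all transcripts 12367 to 16851 in place of 23401 (15784 without the 20 libraries). Other causes were not tested. The strain share of the Mt1 to Mt2 ratio lay between 0.189 and 0.290. No paired analysis was possible because replicate numbers only name mice in accession order. The absence of counts limits every value: FPKM gives no counting error, and 2 to 3 mice per strain leave most neighbouring strains inseparable.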

Other observations

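The mouse OB-627, whose labels name both AXB-6/PgnJ and AXB-8/PgnJ, had 202 FPKM of Mt1, 158 of Mt2 and 288 of Mt3. The means of the other mice were 207, 179 and 249.8 FPKM in AXB-6/PgnJ and 220.5, 190.3 and 255 in AXB-8/PgnJ.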
